A study of Mus musculus with 4 samples.

Results

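The genes described here are 8 markers of dentate granule cells, the densely packed excitatory neurons of the dentate gyrus: Prox1, C1ql2, Dsp, Lct, Trpc6, Calb1, Tdo2 and Stxbp6. Their rows were taken by gene symbol from a table of 31060 genes, in which all 8 were found, each in 1 row. RNA was sequenced from the hippocampus of wild-type (WT) mice aged 12 months, with 2 libraries per group. Control mice were naïve, with no anesthesia or surgery before the day of collection (day 0). Mice of the surgery group had an exploratory laparotomy under sevoflurane, with ropivacaine injected at the incision for analgesia, and were taken on postoperative day 3. Every mouse of both groups was anesthetized when its hippocampus was removed. Nothing in the labels says whether the 2 libraries of a group came from separate mice, so p-values measure only the spread between these libraries. Anesthesia, surgery and ropivacaine came together and cannot be told apart.

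Granule cells receive the cortical input of the hippocampus through the perforant path and send it on to CA3 pyramidal neurons and mossy cells through their axons, the mossy fibers. They are added to throughout life by neurons born in the subgranular zone. Mature granule cells are recognised by the transcription factor Prox1, which sets and maintains their identity, and by the calcium buffer calbindin, the product of Calb1. Several of these genes are also used by other cells: Calb1 is found in CA1 pyramidal neurons and interneurons, and Prox1 in a class of interneurons. In RNA from whole tissue, fewer cells of a type and less RNA per cell cannot be told apart.

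After surgery 7 of the 8 genes had a higher mean and C1ql2 had a lower one. In 6 of them, Prox1, Dsp, Lct, Trpc6, Calb1 and Tdo2, both surgery libraries lay above both control libraries, a separation seen in 20.3% of the 17236 genes tested. In C1ql2 both surgery libraries lay below both controls, which was seen in 22.3% of all genes, and in Stxbp6 the groups overlapped. The differences were small: fold changes ran from 0.813 for C1ql2 to 1.56 for Tdo2. None of the 8 passed edgeR's quasi-likelihood test after Benjamini-Hochberg adjustment over all genes, and 0% of all genes did. At an unadjusted p under 0.05 there were 5, Calb1, Trpc6, Lct, Tdo2 and Prox1, all of them higher, against 4.33% of all genes higher and 5.63% lower. Dropping any 1 library left 6 or 7 of the 8 genes higher, with medians of 0.27 to 0.40 on the log2 scale. Such fits keep 1 library in a group, so genes under a p threshold are not counted for them. The median log2 fold change of the 8 genes was 0.34, beside 0.00053 over all genes, and 7 of 8 were above 0, beside 50.1% of all genes.

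**Figure D1:**
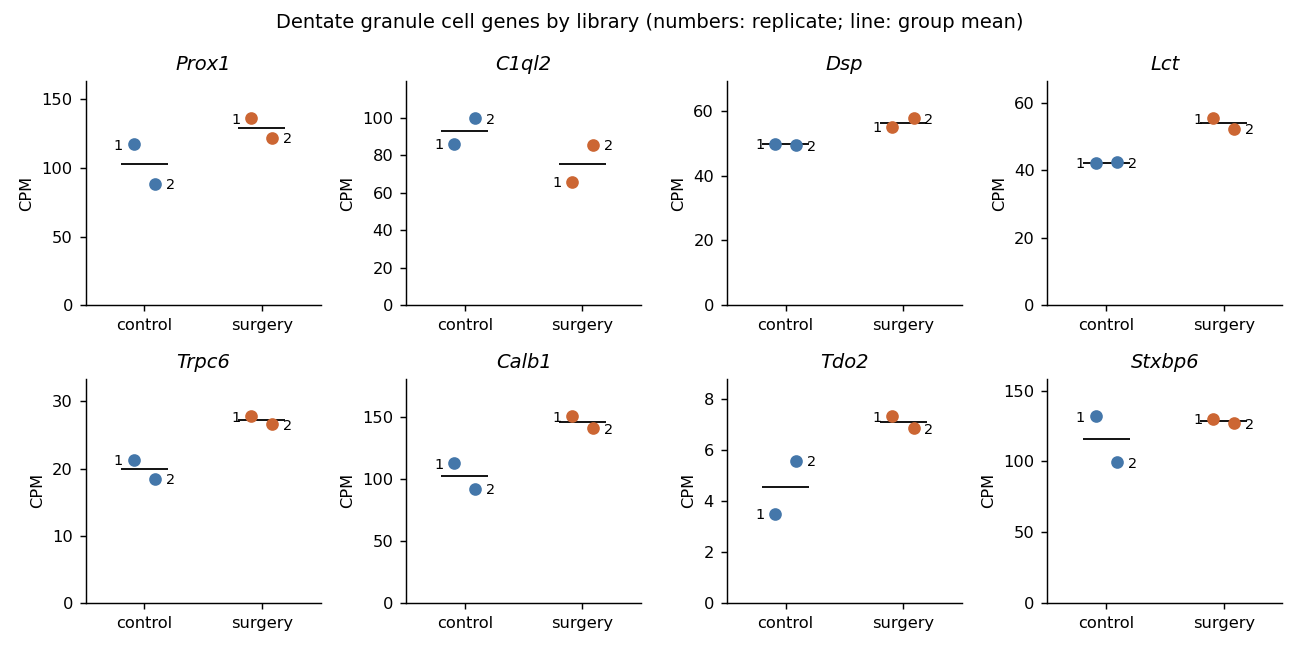
Level of each gene in each library, in CPM (counts scaled to library size with TMM factors). Points are libraries, numbered by replicate, and black lines are group means (n = 2); the surgery libraries lie above both controls in 6 genes, below both in C1ql2 and among them in Stxbp6.

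Facts of the libraries bear on these values. The gene counts summed to between 18002695 and 19318085 per library, and the 8 genes took 0.0555% and 0.051% of them in the controls and 0.0626% and 0.0612% after surgery. Control replicate 1 stood apart from the other libraries in choroid plexus genes: Ttr, the thyroid hormone carrier made by that tissue, had 374 counts there and 59786 to 76232 elsewhere, and the 8 choroid plexus genes examined summed to 52.2 CPM against 3550 to 4580 CPM. Without control replicate 1 the median log2 fold change of the 8 granule cell genes was 0.36. Mitochondrial genes took 4.51% to 5.25% of counts in the controls and 6.32% to 6.61% after surgery. Fold changes also moved with base composition. Across 17209 genes the log2 fold change and the GC content of the longest transcript had a Spearman correlation of -0.45. The genes share the same 4 libraries and are not independent replicates. For each library the log2 CPM of a gene was centred on the gene's mean over the 4 libraries. The Spearman correlation of this centred level with GC content was 0.258 and 0.59 in the controls and -0.647 and -0.0573 after surgery. These values are relative to the other libraries. The libraries of a group thus also differed from each other in this trend. Each of the 8 genes is therefore given below also with a GC offset. That is, each library's own smooth trend of centred log2 CPM against GC content was removed.

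The GC content of the 8 genes ran from 36.8% in Calb1 to 63.4% in C1ql2, and these were also the genes whose fold change moved most with the offset. To show what a GC-rich member looks like, the first 150 coding bases of C1ql2 are printed from GENCODE vM21 on GRCm38, 5′ to 3′, with G and C in capitals.
C1ql2-201: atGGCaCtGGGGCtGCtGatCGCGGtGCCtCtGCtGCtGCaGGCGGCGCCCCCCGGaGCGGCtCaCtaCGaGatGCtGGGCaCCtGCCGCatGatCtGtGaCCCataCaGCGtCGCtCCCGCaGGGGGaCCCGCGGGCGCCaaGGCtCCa
G and C made up 70.7% of this stretch and 64.8% of the whole coding sequence of C1ql2.

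**Figure D2:**
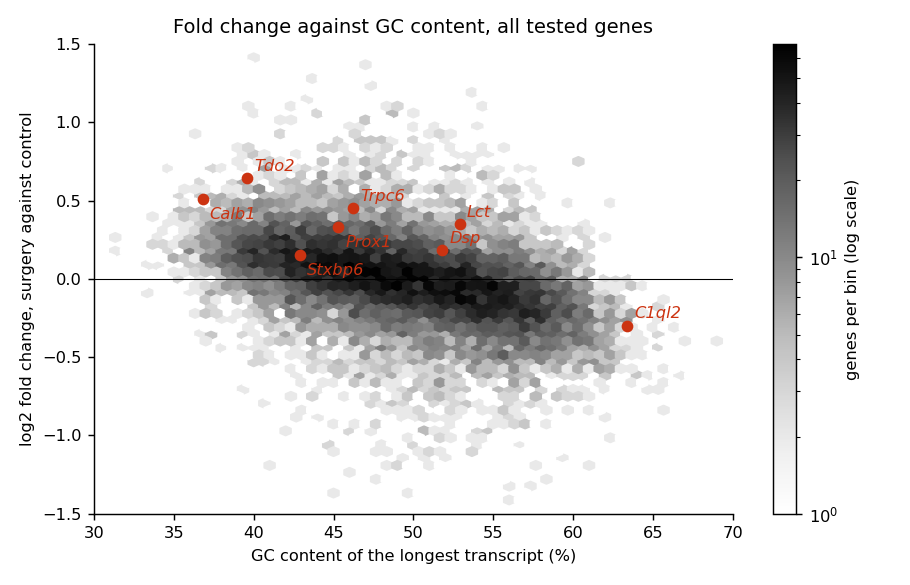
Log2 fold change of surgery against control for all tested genes with a GC content, plotted over GC content in percent (longest transcript). Grey shows the number of genes per bin on a log scale, red points are the 8 granule cell genes, and genes beyond the axes are not drawn; Calb1 at 36.8% GC and C1ql2 at 63.4% GC lie at the opposite ends of a trend that slopes downward.

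The identity genes come first. Prox1, a homeobox transcription factor (ENSMUSG00000010175, chr1:190118035-190170714, minus strand, GRCm38), had 117 and 88.5 CPM in the controls and 136 and 122 CPM after surgery. The groups did not overlap, but the controls differed from each other by 0.40 on the log2 scale, more than the groups did. The log2 fold change was 0.33 (SE 0.14, edgeR adjusted p = 0.479). It ranged from 0.15 without control replicate 2 to 0.55 without control replicate 1, and was 0.24 (SE 0.12) with the GC offset.

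Calb1 (ENSMUSG00000028222, chr4:15881264-15908064, plus strand), the calcium buffer calbindin, had the smallest p of the 8 genes. Its levels were 113 and 92.3 CPM in the controls and 151 and 141 CPM after surgery, or 103 ± 14.6 and 146 ± 7.33 CPM (SD, n = 2). Both surgery libraries were well above both controls, and the gap between the groups exceeded the spread within either. Between the groups the log2 fold change was 0.51 (SE 0.13, edgeR adjusted p = 0.34). DESeq2 called it at an adjusted p of 0.037; that tool called 1.03% of the 7545 genes it adjusted over. Over the alternatives that kept all libraries its edgeR, DESeq2 and limma adjusted p ran from 0.00533 to 0.855. It was under 0.05 only with DESeq2 and with edgeR without the filter on low counts, and the latter called 395 of 29672 genes. The log2 fold change of Calb1 stayed above 0 in all 17 alternatives. It was 0.38 to 0.66 when each library was left out in turn. Its log2 fold change was 0.28 (SE 0.096) with the GC offset.

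Of the genes that act at the synapse, C1ql2 (ENSMUSG00000036907, chr1:120340582-120343174, plus strand) codes for a secreted C1q-like protein that granule cells place at mossy fiber synapses, where it binds kainate receptors and neurexins. It had 86.3 and 99.8 CPM in the controls and 65.8 and 85.6 CPM after surgery. The groups were separated only by the narrow gap between control replicate 1 and surgery replicate 2. This gave a log2 fold change of -0.30 (SE 0.14, edgeR adjusted p = 0.517). Without surgery replicate 2 it was -0.50, and without surgery replicate 1 it was -0.12. With the GC offset the sign turned, to 0.047 (SE 0.092), so no direction can be given for C1ql2.

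Stxbp6 (ENSMUSG00000046314, chr12:44852484-45074709, minus strand) codes for amisyn, a protein that binds syntaxin in SNARE complexes. It had 132 and 99.4 CPM in the controls and 130 and 127 CPM after surgery, so both surgery libraries lay within the range of the controls. The log2 fold change of 0.15 (SE 0.14, edgeR adjusted p = 0.743) was smaller than the difference of 0.41 between the controls, and it turned to -0.031 without control replicate 2. The GC offset brought it to 0.034.

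Trpc6 (ENSMUSG00000031997, chr9:8544142-8680741, plus strand), a calcium-permeable cation channel opened by diacylglycerol, had 21.3 and 18.5 CPM in the controls and 27.8 and 26.6 CPM after surgery. The groups did not overlap. Their log2 fold change was 0.45 (SE 0.15, edgeR adjusted p = 0.407), and it stayed between 0.36 and 0.55 when each library was left out in turn. It was 0.36 (SE 0.13) with the GC offset.

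Dsp (ENSMUSG00000054889, chr13:38151294-38198577, plus strand) codes for desmoplakin, which ties desmosomes to intermediate filaments. Its 2 control libraries were nearly the same, at 49.9 and 49.4 CPM, and the surgery libraries had 55.1 and 57.7 CPM. The log2 fold change was 0.18 (SE 0.12, edgeR adjusted p = 0.603), the smallest of the genes whose groups did not overlap. It was 0.22 (SE 0.096) with the GC offset.

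Lct and Tdo2 code for enzymes. Lct (ENSMUSG00000026354, chr1:128284756-128328318, minus strand), the lactase of the gut brush border, had 42.1 and 42.3 CPM in the controls and 55.3 and 52.3 CPM after surgery. It was the gene with the tightest controls: they differed by 0.008 on the log2 scale, against 0.35 (SE 0.12) between the groups (edgeR adjusted p = 0.414). Its GC content of 52.9% lay above the median of 49.4% over all genes, and its fold change grew with the GC offset, to 0.40 (SE 0.10). Leaving out each library in turn gave 0.32 to 0.39.

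Tdo2 (ENSMUSG00000028011, chr3:81957090-81976202, minus strand), tryptophan 2,3-dioxygenase, opens the kynurenine pathway of tryptophan breakdown. It was the scarcest of the 8, with 66 and 103 counts in the controls and 141 and 123 after surgery, or 3.5 and 5.57 CPM against 7.33 and 6.85 CPM. Both surgery libraries were above both controls. The log2 fold change was 0.65 (SE 0.27, edgeR adjusted p = 0.472), and the controls differed from each other by as much, 0.65. It was 0.35 without control replicate 1, the library low in choroid plexus genes, and 1.02 without control replicate 2. It was 0.45 (SE 0.27) with the GC offset.

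**Figure D3:**
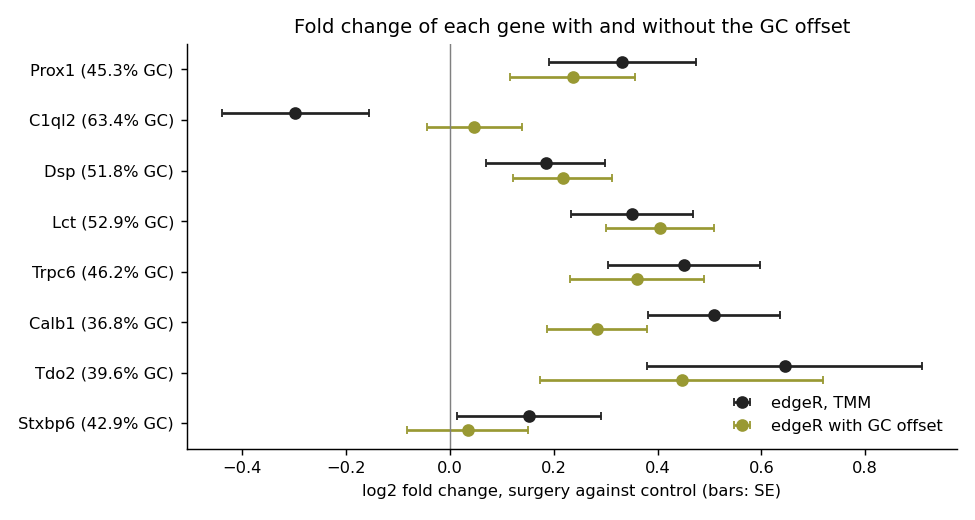
Log2 fold change of surgery against control for each gene, with its standard error, from edgeR with TMM factors (black) and with the GC offset added (olive). C1ql2 moves from -0.30 to 0.047 and Calb1 from 0.51 to 0.28, while Lct moves from 0.35 to 0.40.

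With the GC offset all 8 genes had a log2 fold change above 0, beside 48.8% of all genes, and the median of the 8 was 0.26. At an unadjusted p under 0.05 there were then 4, Lct, Calb1, Trpc6 and Dsp, all higher, beside 3.03% of all genes, and none of the 8 passed after adjustment. Only Lct, Calb1 and Trpc6 were at an unadjusted p under 0.05 both with and without the offset. The CPM of the 8 genes summed to 565 and 496 in the controls and 629 and 619 after surgery, a difference of 93.6 CPM with no overlap. The exact two-sided permutation test gave p = 0.33, the smallest that 2 libraries against 2 can give.

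The levels of the 8 genes can be ordered per transcript length, as FPKM (fragments per kilobase of transcript, scaled to library size). In the controls C1ql2 stood highest at 46.8 ± 6.28 FPKM (SD, n = 2). Stxbp6 at 21.9 ± 3.67 and Calb1 at 21.2 ± 2.34 FPKM came next and did not differ beyond their spread. They were followed by Prox1 at 12.2 ± 1.98, Lct at 6.62 ± 0.24, Dsp at 5.16 ± 0.128, Trpc6 at 3.94 ± 0.257 and Tdo2 at 1.18 ± 0.416 FPKM. After surgery the order was the same except that Calb1, at 29.9 ± 1.66 FPKM, stood above Stxbp6, at 24.1 ± 0.492 FPKM, in both libraries. C1ql2, at 37.5 ± 6.75 FPKM, was then nearer to Calb1: its lower library had 32.8 FPKM and the higher Calb1 library 31.1 FPKM.

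The 8 genes did not vary in one way across the 4 libraries. Measured as the root mean square distance between a gene's centred log2 CPM and the mean profile of the 8 over 4 libraries, Lct (0.042) and Dsp (0.065) lay closest and Tdo2 (0.31) and C1ql2 (0.34) farthest. Prox1, Calb1, Trpc6 and Stxbp6 shared a lower value in control replicate 2 than in control replicate 1, and Tdo2 and C1ql2 the reverse. Of 10259 other genes with a mean of at least 10 CPM, those nearest to the mean profile were Abhd18 (distance 0.0078), Ltv1 (0.0095), Nol4 (0.0098), Fam120b (0.011) and Hdac2 (0.012). These distances rest on 4 libraries and are a description.

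Another 10 genes known from granule cells or the dentate gyrus were examined in the same way. Like the 8 genes, they were chosen with earlier results of these data known, so they are not an independent test. Of these 8 had a log2 fold change above 0 and 2 below, with a median of 0.22, or 0.27 with the GC offset. Both surgery libraries were above both controls in 5, beside 20.3% of all genes, and below both in 1, beside 22.3%. At an unadjusted p under 0.05 in edgeR there were 3, all higher, beside 4.33% of all genes, and none passed after adjustment. Rfx3, a transcription factor of ciliary genes, had 130 and 108 CPM in the controls and 167 and 167 CPM after surgery, with a log2 fold change of 0.49 (SE 0.12, edgeR adjusted p = 0.34). Pdzd2, a protein with several PDZ domains, had a log2 fold change of 0.31 (SE 0.11, edgeR adjusted p = 0.444) and Glis3, a zinc finger transcription factor, one of 0.42 (SE 0.16, edgeR adjusted p = 0.454). With the GC offset Rfx3 was at 0.31, Pdzd2 at 0.38 and Glis3 at 0.42. C1ql3, the partner of C1ql2 at mossy fiber synapses, had 59.7 and 44.5 CPM in the controls and 65.2 and 58.7 CPM after surgery, so its groups overlapped. Of 5 tested genes of newborn granule neurons the median was 0.076, the value of Igfbpl1 (SE 0.86), which had only 2 to 20 counts per library. Among them only Neurod1, a transcription factor needed for granule cell formation, was at an unadjusted p under 0.05, with a log2 fold change of 0.48 (SE 0.19, edgeR adjusted p = 0.46). Neurod1 was at 0.38 with the GC offset.

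Genes of the neighbouring cell types had medians nearer to 0. The median log2 fold change was -0.026 over 6 genes of CA1 pyramidal neurons, -0.070 over 5 of CA2, -0.046 over 5 of CA3, 0.025 over 8 of GABAergic interneurons, 0.083 over 3 of mossy cells and -0.078 over 8 genes used by neurons in general. Among all of these, 2 were at an unadjusted p under 0.05 in edgeR, both lower, beside 5.63% of all genes lower. Pou3f1, a transcription factor of CA1, had a log2 fold change of -0.57 (SE 0.12, edgeR adjusted p = 0.278) and a GC content of 63.9%, and was at -0.19 with the GC offset. Pcp4, a calmodulin-binding protein of CA2, had -0.63 (SE 0.24, edgeR adjusted p = 0.456), and was at -0.695 with the GC offset.

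In each library the mean log2 CPM of the 8 genes was then set against that of each other list, with the mean of the controls taken as 0. Against the CA1 list it stood at 0.005 and -0.005 in the controls and at 0.40 and 0.42 after surgery. Against neurons in general it stood at -0.03 and 0.03 in the controls and at 0.40 and 0.34 after surgery. With the GC trend removed the difference between the groups was 0.25 against CA1, where it had been 0.41, and 0.30 against neurons in general, where it had been 0.37. Against the CA2, CA3 and interneuron lists the groups did not overlap either, though surgery replicate 2 stood at 0.13 and control replicate 1 at 0.12 against CA3. Against the other dentate genes the difference was 0.10, and 0.057 with the GC trend removed. Against the newborn neuron list the groups overlapped. The mean of that list rests in part on genes with few counts. Igfbpl1 had 2 and 20 counts in the controls and 6 and 17 after surgery, and Draxin had 6 and 14 against 10 and 12. These values rest on the same 4 libraries.

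**Figure D4:**
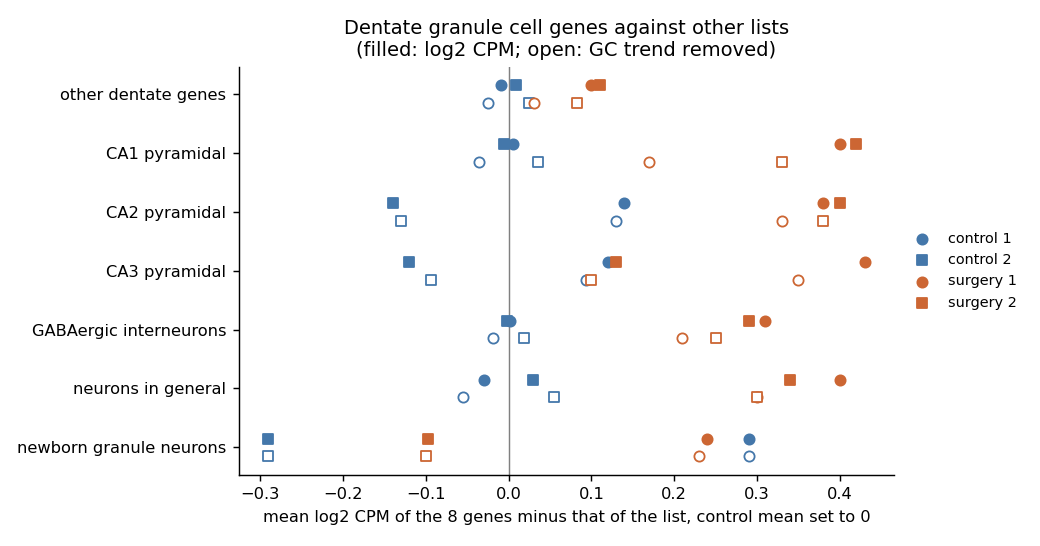
Mean log2 CPM of the 8 granule cell genes minus that of each other list, per library, with the mean of the controls set to 0. Filled symbols are log2 CPM and open symbols log2 CPM with the GC trend removed; control libraries are blue and surgery libraries orange, and against the CA1 list the surgery libraries lie at 0.40 and 0.42.

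Markers of non-neuronal cells and of tissue next to the hippocampus moved as well, and their part in the results above was not tested. The median log2 fold change was 0.81 over 8 choroid plexus genes, all 8 above 0, with control replicate 1 low. It was 0.20 over 8 genes of thalamus and striatum, whose summed level was 50.7 and 94.9 CPM in the controls and 84.1 and 73 CPM after surgery. It was -0.33 over 6 oligodendrocyte genes, whose summed level was 4800 and 4980 CPM in the controls and 4830 and 3420 CPM after surgery; Mag (-0.66) and Cnp (-0.44), both of myelin, were at an unadjusted p under 0.05. It was 0.062 over 6 astrocyte genes, with the water channel Aqp4 at 0.35, and 0.11 over 6 microglial genes, with the complement gene C1qa at -0.44. It was 0.17 over 6 endothelial genes and 0.29 over 7 mural and meningeal genes, with the matrix gene Lum at 0.62. With the GC offset Mag was at -0.47, Cnp at -0.32, Aqp4 at 0.19, C1qa at -0.21 and Lum at 0.465. None of these genes passed after adjustment.

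Relatives of the 8 genes by family or pathway were examined as 6 lists, and 5 of these had a median between -0.0045 and 0.084. Calb2, Pvalb, C1ql3, Grik4 and Snap25 stand in these and also in a cell type list above. Over 10 EF-hand calcium buffers and sensors, the relatives of Calb1, the median log2 fold change was 0.042 and none was at an unadjusted p under 0.05. Over 6 C1q-like genes and receptors of their proteins it was -0.0045, again with none. Over 5 TRPC channels it was 0.084, and Trpc1 alone was at an unadjusted p under 0.05, at 0.36 (SE 0.16, edgeR adjusted p = 0.483). Of 9 genes of tryptophan and kynurenine metabolism 4 passed the filter on low counts, with a median of -0.27 and none at an unadjusted p under 0.05. Over 7 desmosome and plakin genes it was 0.0096 with none. Over 7 SNARE proteins and syntaxin binders it was 0.0035, and the syntaxin Stx1a alone was at an unadjusted p under 0.05, at -0.50 (SE 0.16, edgeR adjusted p = 0.402). With the GC offset Trpc1 was at 0.26 and Stx1a at -0.33.

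The transcript estimates show where a gene total hides unequal parts. They are estimated counts, which exceed the gene counts by 3.85 to 3.91 times in total. Of 21 transcripts listed for the 8 genes, 14 passed the filter on low values. None of the 14 passed edgeR after adjustment, as was true of 0% of 65665 transcripts. DESeq2 called 3, beside 3.95% of all transcripts, and all 3 belong to Trpc6.

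Trpc6-202 was estimated at 733 and 622 counts in the controls and was listed at 0 in both surgery libraries. Trpc6-201 had 523 and 440 in the controls and 1397 and 1320 after surgery, a log2 fold change of 1.52 (SE 0.31), with an adjusted p of 0.525 in edgeR and 0.00108 in DESeq2. Trpc6-203, a form that codes for 406 residues against 930 in Trpc6-201, had 233 and 249 in the controls and 641 and 620 after surgery, a log2 fold change of 1.41 (SE 0.36). The 3 forms summed to 1489 and 1311 in the controls and 2038 and 1940 after surgery, close to the difference in the gene count. Trpc6-201 thus made up 35.1% and 33.6% of the estimate in the controls and 68.5% and 68% after surgery. Trpc6-201 and Trpc6-202 differ in the ends of their first and last exons and by exon 6 of Trpc6-201, which codes for 78 residues and is skipped in Trpc6-202. The 234 bases of that exon, chr9:8649298-8649531 on the plus strand of GRCm38, are shown because they are the coding part in which the forms differ.
Trpc6 exon 6: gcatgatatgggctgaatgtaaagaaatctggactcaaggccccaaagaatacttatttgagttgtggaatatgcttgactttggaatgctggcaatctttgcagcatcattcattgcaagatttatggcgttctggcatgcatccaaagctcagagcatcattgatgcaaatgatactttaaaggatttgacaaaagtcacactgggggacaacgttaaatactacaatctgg
The files hold no count of reads across the junctions of this exon. Whether the value of 0 is a failed estimate was not tested.

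Stxbp6 shows such a shift within a group. Stxbp6-202 was estimated at 5912 and 3314 counts in the controls, at 0 in surgery replicate 1 and at 4224 in surgery replicate 2. Stxbp6-201 had 3526 and 3607 in the controls, 9726 in surgery replicate 1 and 4528 in surgery replicate 2. The sum of the listed forms stayed between 6931 and 9728, so surgery replicate 1 differed from the rest in how the estimate was divided and not in its total. Both forms code for a protein of 210 residues.

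Dsp is divided between a long and a short form, as its protein is. Dsp-201 had 2098 and 2653 estimated counts in the controls and 1771 and 2182 after surgery, and the groups overlapped. Dsp-202 had 1660 and 913 in the controls and 2395 and 1922 after surgery, a log2 fold change of 0.77 (SE 0.41, edgeR adjusted p = 0.984), with no overlap. Its share of the gene was 44.1% and 25.5% in the controls and 57.4% and 46.8% after surgery. Dsp-202 leaves exon 23 at an earlier splice site and lacks 1797 bases, or 599 residues. The 60 bases across the junction into the last exon are shown for both, with the last exon in capitals, joined from chr13:38193655 in Dsp-201 and from chr13:38191858 in Dsp-202 to chr13:38194696.
Dsp-201: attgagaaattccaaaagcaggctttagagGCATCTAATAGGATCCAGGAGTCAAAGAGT
Dsp-202: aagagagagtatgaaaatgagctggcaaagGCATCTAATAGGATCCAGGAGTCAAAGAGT
The last 30 bases are the same in both, and the 30 before them differ.

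**Figure D5:**
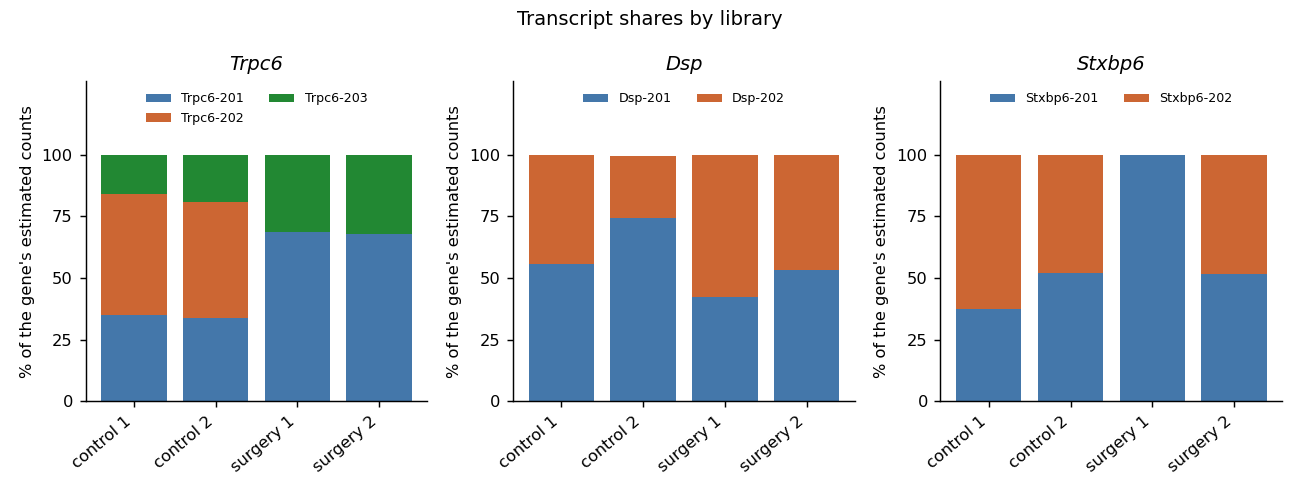
Share of each tested transcript in the estimated counts of its gene, in percent, per library, for Trpc6, Dsp and Stxbp6. Trpc6-202 takes 49.2% and 47.4% in the controls and 0% in both surgery libraries, while Stxbp6-202 is at 0% in surgery replicate 1 alone.

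In Calb1, Tdo2 and C1ql2 a single form held nearly all of the estimate. Calb1-201 took 99.4% to 99.8% of Calb1, Tdo2-201 took 93.7% to 96.2% of Tdo2, and C1ql2 had C1ql2-201 alone. Calb1-201 was at 8510 and 6879 estimated counts in the controls and 11659 and 10032 after surgery, a log2 fold change of 0.52 (SE 0.18), as in the gene count. The forms listed for Prox1 held 0.175 to 0.297 estimated counts per gene count and that of Lct 0.00658 to 0.0378, against 3.7 to 4.06 in the other 6 genes, so these 2 genes are described by their gene counts only; Prox1-202 and Lct-201, the longest forms in the annotation, were not analysed here.

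The sequences before the start sites were searched for short motifs on both strands, from 250 bases before to 50 bases after the start, in RefSeq windows on GRCm38.p6. Windows were found for 7 of the 8 genes, Calb1 being the exception. Prox1 had 2 windows, and its second held none of the motifs below. The counts below are of genes, while the shares beside them are of windows. The E-box, CANNTG, the kind of site that Neurod1 and related factors bind, was present for 5 of the 7, Prox1, C1ql2, Dsp, Lct and Stxbp6, and in 72.3% of all 32851 windows. The activity-linked AP-1 site, TGANTCA, and the CRE, TGACGTCA, were present in none of them, beside 7.81% and 1.79% of all windows. TATAAA and CCAAT were present for Prox1 and Tdo2, beside 13.6% and 37.4% of all windows. These motifs can overlap and a match of letters is not a bound site.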

How the data were processed

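Hippocampal RNA of 2 control and 2 surgery libraries was used. The authors aligned reads with HISAT2 (default parameters, mm10) and counted them with HTSeq, given as version 5.4.2. They deposited raw gene counts, gene FPKM values and a table of estimated counts per transcript; the tool behind the last is not given in the sources used here. Transcript FPKM values were not used. Columns of other samples numbered 0.

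The gene test was edgeR's quasi-likelihood test (version 4.0.16, R 4.3.3) on TMM-normalised counts of genes kept by filterByExpr (at least 10 counts, total at least 15), adjusted by Benjamini-Hochberg over 17236 genes, threshold 0.05. Estimated counts were treated alike over 65665 transcripts. CPM values are TMM-scaled. DESeq2 1.42.0, limma 3.58.1 (voom on counts; trend on log2(FPKM + 1) or log2(FPKM + 0.1), a scale that understates changes of low genes), size factors, filters, a replicate block, each library left out and a GC offset (loess of level against GC content, span 0.3) were alternatives. The level in that loess was a gene's log2 CPM centred on its mean over all libraries. The GC offset was fitted to genes with a log2 CPM of at least 3. Scripts were tested on simulated data. Replicates of each group differed beyond counting noise (chi-square per gene 16 and 13.2). Genes with GC content came from GENCODE vM21. Whether counting used strand is not given in the sources used here, so reads of an overlapping antisense gene cannot be told apart from a gene's own.

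All 8 genes are named. From other lists the genes named were those at an unadjusted p under 0.05, at most 4 per list, plus C1ql3, Ttr, Igfbpl1, Draxin and genes shared between lists. The 5 nearest profiles and transcripts past the filter were named too. Lists and members were chosen with earlier results of these data known.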

Additional observations from a re-analysis of the deposited data

How the results depend on the processing

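The signs of Prox1, Dsp, Lct, Trpc6, Calb1 and Tdo2 were above 0 under every alternative run (Lct under 16, the others under 17). C1ql2 turned from -0.30 to 0.047 with the GC offset and to 0.047 with the GC offset and the replicate block, and Stxbp6 ranged from -0.031 to 0.37 over libraries left out. Of the 8 genes, 0 passed at an adjusted p under 0.05 with the main edgeR fit, which kept all libraries. With DESeq2 1, Calb1, passed, and with edgeR and no filter on low counts also 1, Calb1. The count at an unadjusted p under 0.05 was 5 with edgeR, beside 1717 of 17236 genes. It was 3 with limma on log2(FPKM + 1), beside 2071 of 29672, and 3 on log2(FPKM + 0.1), beside 2057 of 29672. With a mean FPKM of at least 1 it was 3, beside 1383 of 13611. With edgeR on gene counts summed from transcripts it was 2, beside 1073 of 20793. There 7 of the 8 genes remained and Prox1 is held only in part. The median log2 fold change was 0.27 to 0.40 over libraries left out and 0.18 with summed transcripts. Of the 14 transcripts 0 passed with edgeR and 3 with DESeq2. Over all genes the count called was 0 of 17236 with edgeR and 78 of 7545 with DESeq2. It was 395 of 29672 with no filter and 1 of 15868 with at least 10 counts in each library.

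Replicates share numbers across groups, but with 2 pairs, no label that ties them and a correlation of 0.13 between their differences, the samples share only a number. With a replicate block the median was 0.35, 0 of the 8 genes passed and 39 of all genes were called (24 with the GC offset). At an unadjusted p under 0.05 in edgeR with the block there were 6 of the 8. Of these 5 were higher and C1ql2 was lower, beside 2339 of all 17236 genes in either direction. With 2 libraries per group, differences of the size seen in single control pairs cannot be separated from the spread, and values with a library left out assume that the lone library varies like the other group.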
